A study of Mus musculus with 16 samples.

Results

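Of 7043 intervals at which BMAL1 peaks were called in mouse liver, 382 had a peak in at least 1 of 4 control libraries and in no more than 3 of all 8 BMAL1 libraries. These 1- to 3-library control sites were chosen from the authors' merged peak table by its calls alone, so their calls, their peak heights and their sharing between libraries describe the choice and were not tested. They are 382 of the 706 intervals called in any control liver. The other 324 control-called intervals had a peak in 4 or more libraries and are called recurrent sites here. A further 6322 intervals had peaks in 1 to 3 misaligned libraries and in no control library.

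BMAL1 binding was mapped by chromatin immunoprecipitation and sequencing (ChIP-seq) in livers of male and female C57bl6 mice that were misaligned or kept as controls. Tissue was taken under a light cycle of 12 h light and 12 h dark, at ZT0, when the lights come on, or at ZT12, when they go off. The 8 BMAL1 libraries are therefore male misaligned ZT0, male control ZT0, male misaligned ZT12, male control ZT12, and the same 4 in females, with 1 library each. Each library was made from liver pooled from 3 to 4 mice, so no group had a replicate. All mice, controls included, were 8 to 16 weeks old and ate a diet with 42% of calories from fat from the start of the schedule. The labels do not describe the misalignment schedule.

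BMAL1 pairs with CLOCK, and the pair binds the E-box CACGTG in promoters and enhancers to switch on clock genes such as the Per and Cry genes, whose proteins then repress it. In liver the same pair also binds near many genes of metabolism, and its binding in mice on a regular light cycle is known to rise and fall over the day. A peak list holds only peaks past the caller's limit, so a library without a call gives no value for that site.

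To show what the control sites in few libraries look like, promoter stretches are printed from RefSeq (build GRCm38.p6) 5′ to 3′ on the gene's strand, each lying upstream of a start site whose promoter held the summit of a member. Capitals mark the E-box CACGTG, which reads the same on both strands. The first 5 stretches, of members called in 2 or 3 libraries, were chosen because they hold it, as 25 of the 45 promoters of such members do.
Ola1 (chr2:73214517-73214616, - strand): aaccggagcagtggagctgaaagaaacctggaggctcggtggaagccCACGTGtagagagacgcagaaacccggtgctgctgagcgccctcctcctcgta
Spout1 (chr2:30178514-30178613, - strand): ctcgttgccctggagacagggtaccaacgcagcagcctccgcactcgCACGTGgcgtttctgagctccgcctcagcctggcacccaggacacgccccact
Lamtor4 (chr5:138255331-138255430, + strand): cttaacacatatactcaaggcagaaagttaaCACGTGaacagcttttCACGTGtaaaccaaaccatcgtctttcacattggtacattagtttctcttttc
Rdh9 (chr10:127776157-127776256, + strand): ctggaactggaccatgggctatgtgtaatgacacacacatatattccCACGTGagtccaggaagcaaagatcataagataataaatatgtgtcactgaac
Taf8 (chr17:47502338-47502437, - strand): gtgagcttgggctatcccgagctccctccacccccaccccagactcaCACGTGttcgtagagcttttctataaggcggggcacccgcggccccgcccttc

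The Ola1 promoter, of an Obg-like ATPase, held the strongest member of female control ZT0 outside regions of high background. Spout1 encodes a putative RNA methyltransferase, Lamtor4 a subunit of the lysosomal Ragulator complex, Rdh9 a retinol dehydrogenase and Taf8 a subunit of the general transcription factor TFIID. The Lamtor4 stretch was the only printed one with 2 E-boxes. Members called in a single library are represented by the next 3 stretches, of which only that of Rab10os, an antisense transcript, holds the E-box.
Rab10os (chr12:3235716-3235790, + strand): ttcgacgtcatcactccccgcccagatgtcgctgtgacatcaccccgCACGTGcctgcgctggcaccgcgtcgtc
Fam98a (chr17:75552071-75552170, - strand): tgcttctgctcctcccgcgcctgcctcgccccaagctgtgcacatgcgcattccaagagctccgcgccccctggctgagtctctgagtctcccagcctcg
Dcps (chr9:35176037-35176136, - strand): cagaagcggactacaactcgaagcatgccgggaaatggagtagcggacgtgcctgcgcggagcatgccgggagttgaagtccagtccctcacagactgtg

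Fam98a was called in male control ZT0 alone and Dcps, the scavenger decapping enzyme, in female control ZT0 alone. The last stretch is shown because Bmp2k, a kinase gene, held the strongest member of female control ZT12 in its promoter without CACGTG anywhere in the promoter window.
Bmp2k (chr5:96997439-96997538, + strand): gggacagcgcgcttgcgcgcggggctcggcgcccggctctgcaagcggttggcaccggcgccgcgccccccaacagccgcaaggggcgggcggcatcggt

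The members were thinly shared among control livers. Of the 382, 188 (49.2%) had a peak in 1 library, 74 (19.4%) in 2 and 120 (31.4%) in 3. Only 7 (1.83%) were called in more than 1 control library, against 178 of 324 recurrent sites (54.9%), a contrast that the limit of 3 libraries helps to set. A misaligned library also held 193 of the members (50.5%), and for 171 of these 193 (88.6%) it was male misaligned ZT12, whose list held 78.7% of all intervals.

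Each control library contributed a different number. Female control ZT0 held 137 members, where 3.17% of all intervals were called, and 109 of them were seen nowhere else. Male control ZT0 held 115 (background 5.21%), with 18 seen nowhere else, and male control ZT12 held 108 (background 4.06%), with 46 seen nowhere else. Female control ZT12, the shortest list, held 29 (background 1.96%), with 15 seen nowhere else. The rule used these calls, so nothing is read from the backgrounds.

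Few members of female control livers recurred in the misaligned livers of the same sex and time. The misaligned partner also called 29 of the 115 members of male control ZT0 (25.2%), 52 of 108 in males at ZT12 (48.1%), 6 of 137 in females at ZT0 (4.38%) and 2 of 29 in females at ZT12 (6.90%). The reverse event, a call in the control and not in its misaligned partner, was counted over all intervals. Such intervals made up 1.42% in males at ZT0, 0.895% in males at ZT12, 1.95% in females at ZT0 and 0.965% in females at ZT12. Members were 86 of these 100 intervals in males at ZT0 and 56 of 63 in males at ZT12. In females they were 131 of 137 at ZT0 and 27 of 68 at ZT12, and the limit of 3 libraries helps to set these counts. The partner lists differ in length, and the smallest shares stand beside both a female misaligned ZT12 list with 3.08% of all intervals and a female misaligned ZT0 list with 18.8%. Male misaligned ZT0 held 26.4% of all intervals. Apart from single libraries, the most frequent combinations were male misaligned ZT12 and female misaligned ZT0 with male control ZT0 (30 members) and male misaligned ZT12 with male control ZT0 (29 members).

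**Figure D1:**
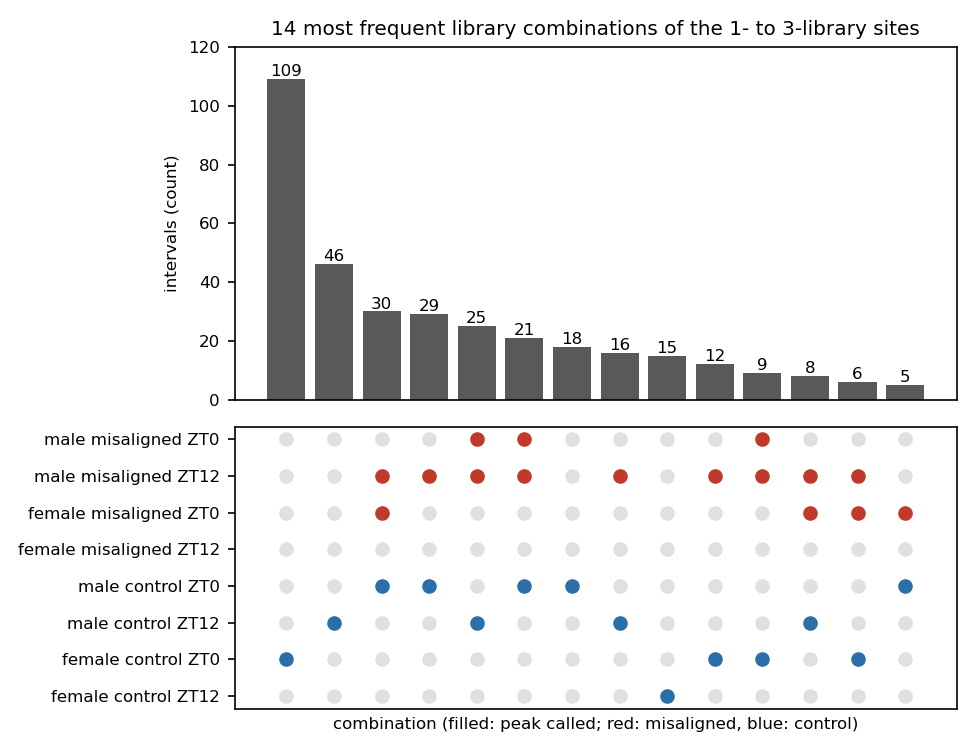
Number of 1- to 3-library control sites (bars) for the 14 most frequent combinations of libraries; filled circles below mark the libraries with a peak, red for misaligned and blue for control. Female control ZT0 alone leads with 109 sites, followed by male control ZT12 alone with 46.

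The 7 members in a pair of control libraries included 3 of high local background, and 5 of the 7 paired the male control libraries. The interval near Ptma, the gene of prothymosin alpha (chromosome 1, 86524770 to 86525398), had a fold enrichment over local background of 10.1 in male misaligned ZT12, against 4.58 in male control ZT0 and 5.46 in male control ZT12. Near Pim3, a serine/threonine kinase gene (chromosome 15, 88875464 to 88876578), the values were 7.18 in male misaligned ZT12, against 5.06 in male control ZT0 and 4.64 in male control ZT12. Both lay in male libraries of both times and were missed in male misaligned ZT0. Near Tmem106a (chromosome 11, 101589348 to 101590184) fold enrichment was 9.66 in male misaligned ZT12, against 3.69 in male control ZT12 and 3.26 in female control ZT0, so this site crossed the sexes. An intron of Pcca, a subunit of propionyl-CoA carboxylase (chromosome 14, 122569025 to 122569542), was the only member called in more than 1 control library and in no misaligned one, with 2.11 in male control ZT0 and 5.03 in male control ZT12. The other 3, nearest Gm16505, Gm11168 and Gm29277, had high local background in at least 1 peak. At Gm29277 (chromosome Y, 261061 to 261452) the male control ZT12 peak was 11.5-fold, at 2.08 times the lowest background of its list. Its peaks in male control ZT0 (2.69-fold) and male misaligned ZT0 (3.23-fold) were the ones with high background.

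Member peaks were weak within their own lists. Fold enrichment is the authors' ratio of fragments at the summit to the local background, and -log10 q is the caller's significance, where a larger value is more significant. The median fold enrichment of member peaks was 3.91 in male control ZT0, against 4.89 for recurrent peaks of that list. It was 3.90 against 5.43 in male control ZT12, 3.42 against 3.95 in female control ZT0 and 3.35 against 4.39 in female control ZT12. The members thus sat lower in every control list, a description of the choice and not a test.

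The share of member peaks with -log10 q below 3 was 61.3% in female control ZT0, 13% in male control ZT0, 19.4% in male control ZT12 and 34.5% in female control ZT12, and since q depends on depth the lists are not ranked by it. The median -log10 q of members and of recurrent peaks was 2.54 and 6.80 in female control ZT0, 6.56 and 12.8 in male control ZT0, 5.45 and 17.3 in male control ZT12, and 3.88 and 13.8 in female control ZT12. The 109 members seen in female control ZT0 alone had a median of 22 fragments at the summit over a background of 5.52 fragments, and 71 of them (65.1%) had -log10 q below 3. Sequencing depth is unknown, so fold enrichment and q are read within a list. Liver is a mixture of cell types, and a site bound in fewer cells cannot be told apart from one bound less often in all of them.

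**Figure D2:**
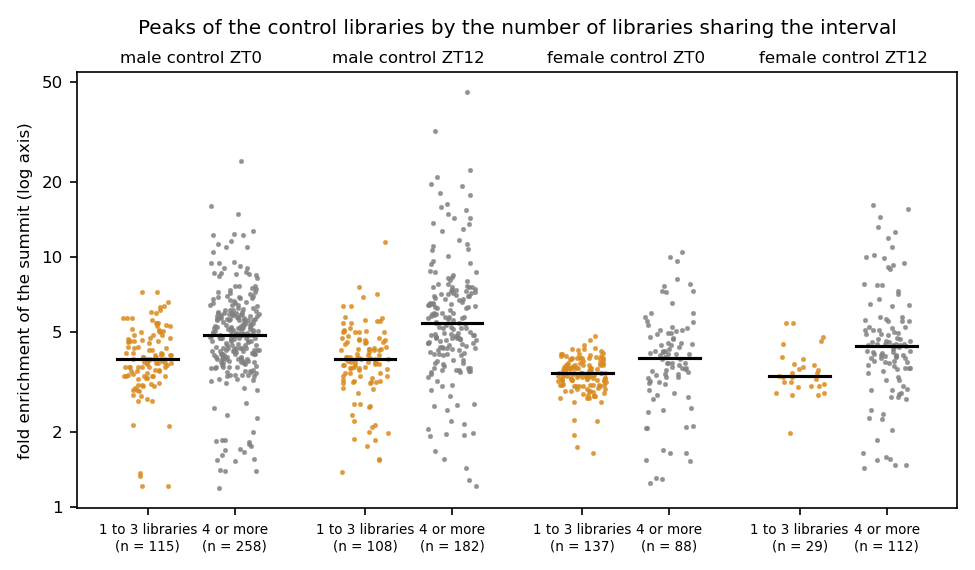
Fold enrichment of the summit (log axis) of every peak in the 4 control libraries, with sites in 1 to 3 libraries in orange and recurrent sites in grey; each point is a peak and black bars are medians. The medians of the orange sites are 3.91, 3.90, 3.42 and 3.35, and those of the grey sites 4.89, 5.43, 3.95 and 4.39.

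In male misaligned ZT12 the sites shared with control livers ranked higher than the sites of misaligned livers alone. The 171 member peaks there had a median fold enrichment of 5.16 and a median -log10 q of 15.6, against 3.60 and 5.07 for peaks of intervals called in 1 to 3 misaligned libraries only. Their median rank by q was 918 in a list of 5542 peaks, against 2990 for those other peaks. A member called there had by definition been called in a control library as well, and so in more than 1 library. Of all intervals called in 1 to 3 misaligned libraries only, 5338 of 6322 were called in 1 library. The 2 classes are therefore not matched for number of libraries. Their difference in this list describes the choice and was not tested.

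The limit of 3 libraries cuts through a gradual change. The 120 members in 3 libraries, just inside it, had a median best control -log10 q of 6.83 and a median fold enrichment of 4.00, and 6 of them (5%) were called in more than 1 control library. The 135 control-called intervals in 4 libraries, just outside, had 9.87 and 4.44, and 21 (15.6%) were called in more than 1 control library. The strongest just outside and without high background lay near Gm26501 and at the promoter of Zfp292, a zinc finger gene, each called in 3 misaligned libraries and male control ZT0.

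Members at 2 core clock loci lay apart from the intervals that all 8 libraries shared there. A peak in an intron of the repressor gene Per2 (chromosome 1, 91445817 to 91446591) had a fold enrichment of 10.4 in male misaligned ZT12 and 5.20 in female misaligned ZT0, against 5.00 in male control ZT12. This site lay 12204 bp from the Per2 interval that was called in all 8 libraries. In an intron of Thra, the thyroid hormone receptor alpha gene that overlaps Nr1d1 on the other strand (chromosome 11, 98754865 to 98755224), the values were 2.40 in male misaligned ZT12 and 3.98 in female control ZT12, and the site lay 17322 bp from the 8-library interval at Nr1d1.

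Krüppel-like factors gave 2 members beside recurrent sites, at Klf15 and Klf10, and a member far from one at Klf3. The Klf3 member (chromosome 5, 64803001 to 64803568) lay in a promoter without CACGTG, 689044 bp from the nearest recurrent interval. Its fold enrichment was 3.91 in male control ZT0. At Klf15, a regulator of amino acid and glucose metabolism (chromosome 6, 90462227 to 90462617), fold enrichment was 5.46 in male misaligned ZT12 and 3.77 in female misaligned ZT0, against 5.02 in male control ZT0. The site lay in a RefSeq promoter with an E-box, 824 bp from another Klf15 interval called in 7 libraries. At Klf10 (chromosome 15, 38298593 to 38299655) the values were 7.01 and 3.58 in the same misaligned libraries, against 4.14 in male control ZT0, and the site lay 931 bp from a 4-library interval. Few members lay so close to a recurrent interval. Of all 382 members, 44 (11.5%) lay within 1000 bp of another interval and 11 (2.88%) within 1000 bp of a recurrent one. Without high background these numbers were 34 and 5 of 357.

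Regulatory genes were among the strongest members of male control livers. At the promoter of Hif1a, the oxygen-regulated transcription factor (chromosome 12, 73907385 to 73907942), fold enrichment was 8.88 in male misaligned ZT0 and 9.40 in male misaligned ZT12, against 7.11 in male control ZT12. It ranked 51 and 120 in the misaligned lists and 80 in the control list, so it was a strong peak wherever it was called. At Hes1, a repressor downstream of Notch (chromosome 16, 30064956 to 30065495), the values were 4.63 in male misaligned ZT0 and 5.97 in male misaligned ZT12, against 7.26 in male control ZT0. No female library called either site. The Hes1 site lay 379 bp from another Hes1 interval, a recurrent one called in 4 libraries.

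Listed genes of metabolism and inflammation gave 3 further members. Nr0b2, the gene of SHP, a nuclear receptor that represses bile acid synthesis, had a promoter peak (chromosome 4, 133552906 to 133553527) of 3.45-fold in male misaligned ZT12 and 3.92-fold in female misaligned ZT0, against 4.64-fold in male control ZT12. Ppp1r3c, a glycogen-targeting subunit of protein phosphatase 1, had a peak at its 3′ end (chromosome 19, 36731441 to 36731775) in male control ZT0 alone, of 5.36-fold and -log10 q 17.2, at rank 91 of 373. It is the strongest member seen in that library alone. Cxcl1, a chemokine gene, had an exonic peak of 2.81-fold in female control ZT12 alone, with -log10 q of 1.66, at rank 139 of 141. A separate interval, called in 1 misaligned library only, lay 148 bp from this Cxcl1 peak.

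Some of the strongest members of female control livers were called in misaligned males as well. Ola1 was the strongest of female control ZT0 outside high background, with 3.59-fold in male misaligned ZT0 and 2.42-fold in male misaligned ZT12, against 4.83-fold in female control ZT0. Slc38a9, a lysosomal arginine sensor, was called at 4.46-fold in male misaligned ZT12, against 4.44-fold in female control ZT0. Hacd1, an enzyme of very-long-chain fatty acid synthesis, was called at 3.94-fold in male misaligned ZT0 and 3.79-fold in male misaligned ZT12, against 4.65-fold in female control ZT0. These 3 sites were missed in female misaligned ZT0. In female control ZT12 the strongest was the Bmp2k promoter, with 11.8-fold in male misaligned ZT12 and 5.27-fold in female misaligned ZT0, against 5.47-fold in the control. An intron of Dpyd, the first enzyme of pyrimidine breakdown, was called in female control ZT12 alone, at 4.50-fold.

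**Figure D3:**
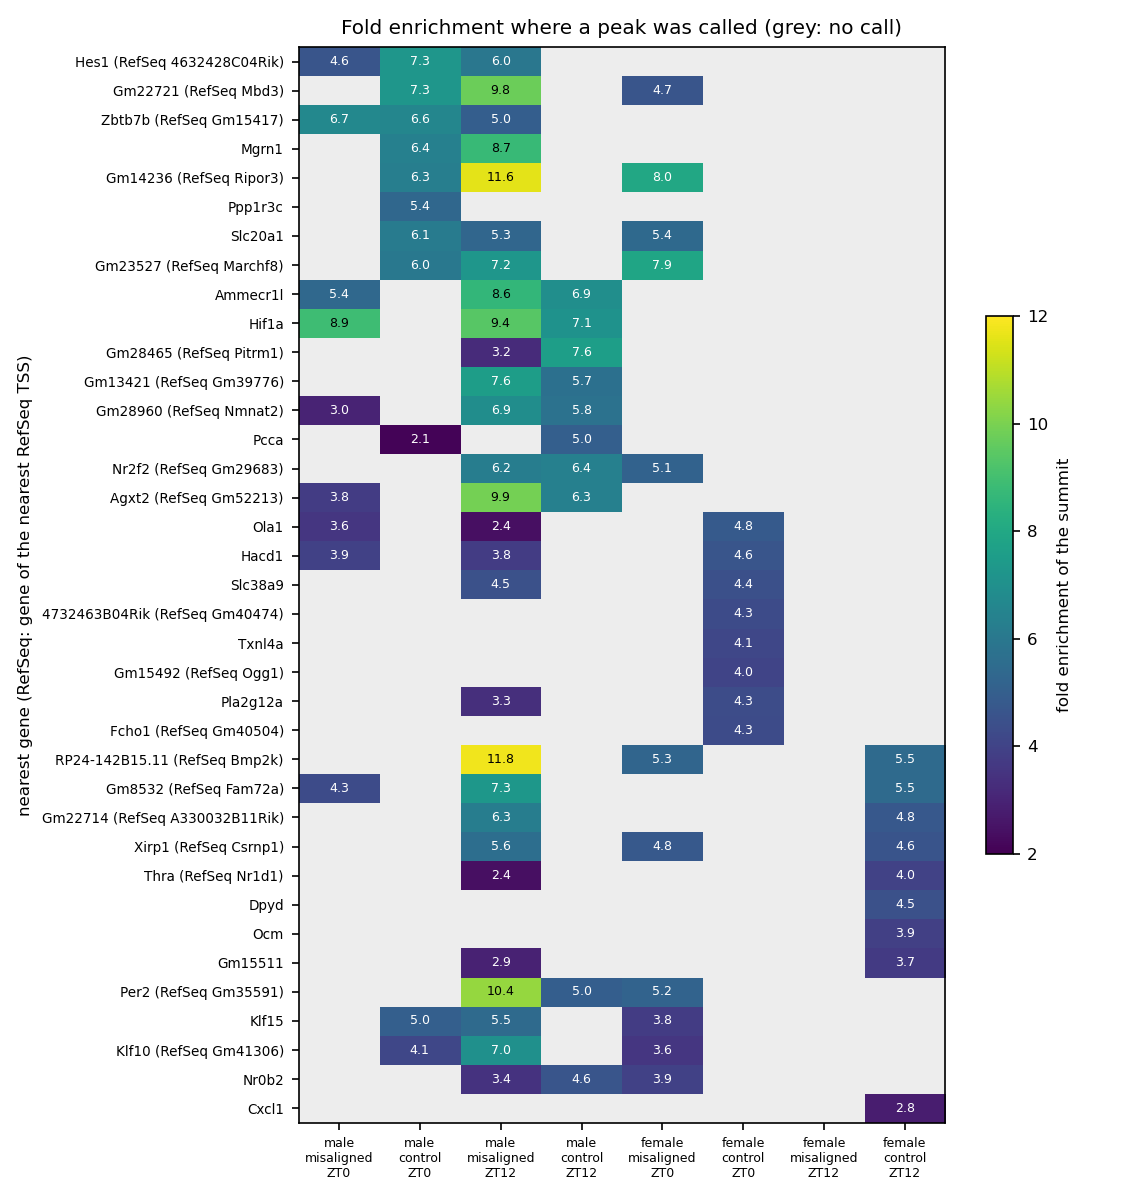
Fold enrichment of the summit (colour and figures) in each of the 8 libraries for members named by rule, without high local background; rows are the authors' nearest genes, with the gene of the nearest RefSeq start in parentheses where it differs, and grey means that no peak was called. The female misaligned ZT12 column is empty, and values reach 11.8 in male misaligned ZT12.

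Listed genes were few. Across 11 lists with 237 genes, 6 genes (2.53%) had a member within 10 kb of the transcription start site (TSS) by the authors' nearest gene: Per2, Ppp1r3c, Klf15, Klf10, Nr0b2 and Cxcl1. Over all 21900 RefSeq protein-coding genes the share was 0.644%. Recurrent sites touched 26 listed genes (11%), against 0.689% of all protein-coding genes. The core clock list had 1 of 22 genes with a member and 12 of 22 with a recurrent site, and the clock output list 3 of 18 with a member. Lists of lipid metabolism, abundant hepatocyte secretory genes, liver transcription factors, sex-biased genes, stress response and markers of other cell types had 0, by this rule. By RefSeq start sites 7 listed genes had one, but not the same genes. The core clock list then had 0, as the RefSeq start nearest to the Per2 member was that of Gm35591. Klf10 dropped out as well, with Gm41306 as the nearest RefSeq start, and Alas1 entered. The stress response list had 2, Hif1a and Ddit3.

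Members lay less often at gene starts than recurrent sites. By the authors' annotation 127 members (33.2%) were at a promoter or TSS, 134 (35.1%) in introns, 89 (23.3%) intergenic, 21 in exons and 11 at transcription ends, against 60.8% promoter, 17.3% intron and 14.5% intergenic for recurrent sites. Within 1 kb of the TSS lay 30.4% of members (116 of 382, exact Clopper-Pearson 95% interval 25.8 to 35.2) and 43.5% of recurrent sites (38.0 to 49.1). Intervals called in 1 to 3 misaligned libraries only had 27.7% (26.6 to 28.9). By RefSeq start sites both these intervals and the members had 31.7%. Among sites called in 1 library, the share by the authors' TSS was 22.9% of members and 25.2% of misaligned-only intervals (1345 of 5338). The 95% intervals cover counting error only, and sites are not replicates.

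Among the members, the share near gene starts was higher with more libraries. Of members called in 1 library 22.9% lay within 1 kb of a TSS (43 of 188), of those in 2 libraries 29.7% and of those in 3 libraries 42.5%. Beyond the members there was no steady climb: the share was 40.7% of intervals in 4 libraries, 51.3% in 5, 31.2% in 6, 58.6% in 7 and 41.2% in 8. The 4 control libraries were the units of a test that enumerates every sign flip exactly, two-sided. Member peaks were within 1 kb of a TSS less often than recurrent peaks in 4 of 4 control libraries, with differences of -3.70 percentage points in male control ZT0, -22.0 in male control ZT12, -14.8 in female control ZT0 and -13.5 in female control ZT12. The mean difference was -13.5 points (exact p = 0.13, adjusted p = 0.31 over 5 tests). That is the smallest p that 4 libraries allow, so the test could not pass 0.05. Against members in 2 or 3 libraries, those in 1 library were at a TSS less often in 3 of 4 control libraries, by a mean of -11.3 points (exact p = 0.375, adjusted p = 0.375). In female control ZT12 the single-library members had the higher share, 33.3% against 21.4%.

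Whether misalignment moved few-library peaks relative to gene starts could not be resolved with 4 pairs of libraries. Few-library peaks here are the peaks of all intervals called in 1 to 3 libraries. Member peaks called in a misaligned library are thus counted on its side too, so the same member can stand on both sides. The 2 sides are not matched for number of libraries. The share within 1 kb of a TSS was 32.2% in misaligned and 40.9% in control males at ZT0, 27.0% and 17.6% in males at ZT12, 45.9% and 30.7% in females at ZT0, and 32.3% and 27.6% in females at ZT12. It was higher in misaligned livers in 3 of 4 pairs, by a mean of 5.17 points (exact sign flips over the pairs, two-sided, p = 0.375, adjusted p = 0.375). The pairs spread from -8.64 to 15.2 points. With lists of equal length in each pair, the mean was 8.70 points (exact sign flips, p = 0.25), and it was 1.81 without the pair of females at ZT0 and 9.77 without that of males at ZT0.

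**Figure D4:**
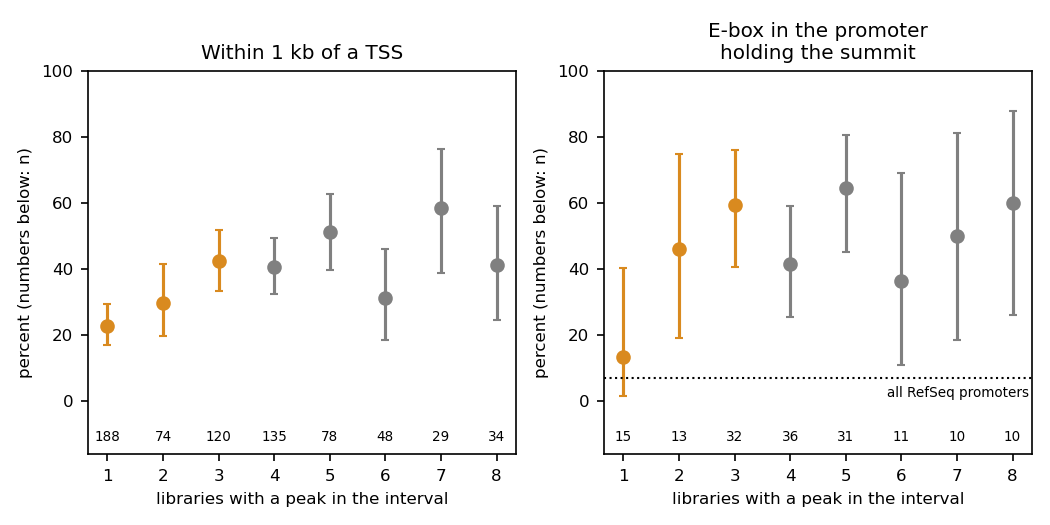
Percent of control-called intervals within 1 kb of a TSS (left) and percent of promoters holding a summit that contain CACGTG (right), by number of libraries with a peak, with exact 95% intervals for counting error; orange marks 1 to 3 libraries, grey 4 or more, the dotted line all RefSeq promoters, and n is printed below. Members climb from 22.9% to 42.5% on the left and from 13.3% to 59.4% on the right between 1 and 3 libraries.

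The E-box was in 25 of 45 promoters of members called in 2 or 3 libraries and in 2 of 15 of members called in 1. The summit of 60 members lay in a RefSeq promoter window (250 bases before to 50 after a start site), of 363 members on chromosomes with such windows. Of these, 27 (45.0%, exact 95% interval 32.1 to 58.4) contained CACGTG, against 50 of 98 promoters of recurrent sites (51.0%) and 271 of 1003 of the sites called in 1 to 3 misaligned libraries only (27.0%). All 32851 RefSeq promoters gave 7.15%. Among members the share was 13.3% in 1 library (2 of 15, interval 1.66 to 40.5), 46.2% in 2 (6 of 13) and 59.4% in 3 (19 of 32, interval 40.6 to 76.3). Beyond the members it did not climb steadily. It was 41.7% in 4 libraries (15 of 36), 64.5% in 5, 36.4% in 6, 50% in 7 and 60% in 8. Sites called in 1 misaligned library only had 24.7% (185 of 750, interval 21.6 to 27.9), above the 13.3% of single-library members. Single-library sites made up 5338 of the 6322 misaligned-only sites in 1 to 3 libraries, against 188 of 382 members. The pooled shares of 45.0% and 27.0% are therefore not matched for number of libraries.

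Other letters were searched beside the E-box. The near match CACGTT, searched on both strands, was in 6.67% of member promoters (4 of 60), against 4.68% of all. Recurrent sites had 15.3% and sites of 1 to 3 misaligned libraries only 10.5%. CTCGAG, a shuffled palindrome of the same bases, was in 8.33% of member promoters (5 of 60), against 3.92% of all. Recurrent sites had 8.16% and sites of 1 to 3 misaligned libraries only 7.08%. In single-library members CTCGAG was in 3 of 15 promoters and CACGTG in 2 of 15. In 26 of the 27 promoters the centre of the nearest E-box lay within 100 bp of the summit and in 17 within 50 bp, with a median of 42.5 bp. The 2 of single-library members, in the promoters of Rab10os and of Gm46560 in the Bdh1 locus, lay 210.5 and 76.5 bp away. The strongest members with an E-box in the promoter were Hif1a, Marchf8 (a membrane ubiquitin ligase), Pigw (an enzyme of GPI anchor synthesis), 4831440E17Rik and Cuta. Xpot (tRNA export), Hnrnpf (RNA processing), Abcf1, Dnpep, Trappc10, Mknk1 and Ercc6 (a DNA repair factor) had one as well.

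Over libraries the E-box difference was not resolved. Member promoters contained CACGTG less often than promoters of recurrent peaks in 4 of 4 control libraries, with 51.7% against 53.1% in male control ZT0, 50% against 54.8% in male control ZT12, 38.9% against 40.9% in female control ZT0, and 0 of 3 against 40.6% in female control ZT12. The mean of -12.2 points (exact sign flips, p = 0.13, adjusted p = 0.31) was -2.71 points without female control ZT12. For the next comparison, few-library peaks of misaligned libraries again include member peaks, and the sides are not matched for number of libraries. Between misaligned and control livers the share in few-library peaks was 25.2% and 51.7% in males at ZT0, 29.8% and 50% in males at ZT12, 33.5% and 38.9% in females at ZT0, and 12.5% and 0% in females at ZT12, a mean of -9.92 points (exact sign-flip permutation, p = 0.375, adjusted p = 0.375). Without the pair of females at ZT12, whose control had 3 such promoters, it was -17.4 points over the other 3 pairs (exact sign flips, p = 0.25, the smallest that 3 pairs allow), and without the pair of males at ZT0 it was -4.37. Misaligned lists were longer in each pair, and with lists of equal length the mean was -2.10 points (exact sign flips, p = 1).

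A small set of members had high local background. In 25 of the 382 (6.54%) at least 1 peak had a local background of 5 times the lowest in its list or more. The same held for 26 of 324 recurrent sites (8.02%) and 16 of 6322 sites of 1 to 3 misaligned libraries only (0.253%). Of the 25 members, 15 were called in 1 library. All 4 mitochondrial members were among the 25, as were 6 of 8 on the Y chromosome and 11 of 13 members within the first 3.5 Mb of chromosomes 9, 11, 13, 17 and 18. The 46 members of male control ZT12 alone included 12 of them. The most significant of them in male control ZT12, near Gm10722 on chromosome 9 (3000547 to 3000808), had -log10 q of 138 at a fold enrichment of 2.14. At mt-Tp in the mitochondrial genome the fold enrichment was 1.40 in male misaligned ZT0 and 1.64 in female misaligned ZT0, against 1.37 in male control ZT0. A Y-chromosome interval near Gm21742 (90811301 to 90811577) was called in female control ZT0, at 1.74-fold; it lies close to Erdr1, a gene known from the pseudoautosomal region that X and Y share.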

How the data were processed

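ChIP-seq peak lists of 8 BMAL1 libraries and a merged table of 7043 intervals were used; 8 IgG libraries are not used here. Per the submitters' processing notes, alignment used BWA 0.7.17-r1188 on build GRCm38, and peak calling MACS2 2.2.7.1. The q threshold, effective genome size and use of IgG as control are not given in the sources used here. The deposited lists give, by the authors' caller, a score, a ratio (fold enrichment), -log10 p and -log10 q per peak; the deposited table gives calls per library, the nearest gene and its TSS distance. They hold only called peaks, so an uncalled site has no value, and depth is unknown. All 9986 peaks were matched to the table's calls, with 0 disagreements.

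From fold enrichment and -log10 p, fragments and local background at each summit were solved for (relative tolerance 0.0001; 100% of peaks; 100% of 991 simulated peaks). Shares carry exact Clopper-Pearson 95% intervals. Location and E-box shares were compared over libraries with exact sign-flip permutation tests and Benjamini-Hochberg adjustment over 5 tests, in Python 3.11.15, pandas 2.3.3, NumPy 2.4.6, SciPy 1.17.1 and matplotlib 3.10.9. Groups were taken from the labels. Promoter sequences came from RefSeq (GRCm38.p6), the build of the files, and no other genome sequence was used. RefSeq promoter windows exist on the chromosomes of 363 of the 382 members, and for members on other chromosomes no promoter was used. The summit lay inside a window for 60 of the 363, and the main E-box share rests on these 60.

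Named were the genes nearest the 8 strongest members of each control library without high background, members called in control libraries only and in more than 1 of them, listed genes with a member within 10 kb (up to 5 per list), the 5 strongest members in 3 libraries, the 5 strongest control-called intervals in 4 libraries and the 5 strongest of high background. Genes named for their promoter E-box, for a printed sequence, for a call in 2 control libraries or as a mitochondrial or Y-chromosome example were chosen after their values were seen. Klf3 was also named after its values were seen. The members, the lists and the alternatives were chosen with earlier results of these data known. The E-box measure and its tests, and the test of 1 library against 2 or 3, were added after the files were seen.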

Additional observations from a re-analysis of the deposited data

Results flagged for a closer look

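In control livers the share of few-library peaks within 1 kb of a TSS differed between the sexes in opposite directions at the 2 times. It was 30.7% in females and 40.9% in males at ZT0, a difference (female minus male) of -10.2 percentage points, and 27.6% in females and 17.6% in males at ZT12, a difference of 9.99 points. With 1 library on each side, the difference between the times was not tested. Of the member peaks in these libraries, 61.3% in female control ZT0, 13% in male control ZT0, 34.5% in female control ZT12 and 19.4% in male control ZT12 had -log10 q below 3, and their part in the result was not tested.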

How the results depend on the processing

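No paired analysis was possible because each group has 1 library, so no replicate numbers are shared; the sign flips between misaligned and control livers pair libraries of the same sex and time instead. The number of members was 382, and 254 with a control peak of -log10 q of at least 3; with 2 or fewer libraries, overlap of at least 50%, without high background, on chromosomes 1 to 19, X and Y, or without the sites of female control ZT0 alone it was 262 to 460. The share within 1 kb of a TSS, 30.4%, was 46.1% at 5 kb and 29.6% to 32.2% otherwise. The E-box share, 45.0%, was 29.6% for the nearest start within 1 kb and 28.6% for members in 2 or fewer libraries. Otherwise it ranged from 44.2% (protein-coding promoters) to 53.2% (control peak of -log10 q of at least 3). Listed genes with a member, 6 within 10 kb, were 2 within 1 kb and 13 at any distance. Leaving out each library in turn moved the mean difference in TSS share from -16.8 to -10.7 points (members minus recurrent), from 1.30 to 9.77 (misaligned minus control, leaving out single libraries or pairs; 1.30 without male control ZT12, 1.32 without female misaligned ZT0) and from -19.0 to -5.51 (1 library minus 2 or 3). For the E-box share the ranges were -15.8 to -2.71 (members minus recurrent) and -21.6 to -4.37 (misaligned minus control). The value of -21.6, without female control ZT12, is a difference of unpaired means of 4 misaligned and 3 control libraries and so drops the pairing as well as a library (unadjusted exact permutation p = 0.0286, the smallest such a split allows). Without its whole pair the difference was -17.4 (exact p = 0.25), and over all 8 libraries without strata p was 0.457 (exact permutation); the other leave-one-out values did not pass 0.05. With lists of equal length the misaligned minus control difference was 8.70 points for the TSS share and -2.10 for the E-box share. Alternatives other than the leave-one-out kept every test's direction and missed 0.05; no result reversed. The E-box alternatives, leaving out pairs, leaving out sites of female control ZT0 alone, and those of the 1-library test were chosen after seeing the data. The planned E-box share around summits was not run, because it needs a genome sequence. Unknown depth and 1 library per group limit every comparison.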
